A study of Mus musculus with 18 samples.

Results

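Bdnf, Inhba, Vgf, Scg2, Pcsk1, Rasgrp1, Ptgs2, Arc and Npas4 are genes whose mRNA in excitatory neurons is known to depend on synaptic activity. They were picked by name, with earlier results of these data known. All 9 were found among the 23420 gene symbols of the deposited count table. Each was followed through 6 groups of mouse cortex libraries, both per library size and against the content of Camk2a-type neuron RNA in the same library.

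The study implanted glioma cells in the cortex and asked how the RNA bound to neuronal ribosomes differs between tumor-bearing and tumor-free mice, and with mTOR inhibition. All groups had the genotype Camk2a-Cre-Rpl22HA: Cre driven by Camk2a, which in cortex is mostly active in excitatory neurons, adds an HA tag to Rpl22, a ribosomal protein. Immunoprecipitation (IP) of the tag recovers ribosome-bound RNA of those neurons, and the input is the RNA before that step. The groups were AZD-treated tumor (mice with a tumor given AZD8055, an mTOR kinase inhibitor), tumor (mice with a tumor and no AZD8055) and control (no tumor), each with 3 IP and 3 input libraries. The labels give the tissue as brain, do not give the glioma cells, age, sex, dose or days of treatment, and do not say which libraries came from which mouse, so p-values reflect the spread among the deposited libraries only, which may be technical.

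Neuronal activity raises calcium in the cell, which through kinases and CREB turns on a fast wave of transcription factors such as Npas4 and Fos and then effector genes whose products act at synapses or are secreted. The effectors include growth factors (Bdnf, Inhba), cargo and enzymes of dense-core granules (Vgf, Scg2, Pcsk1), an activator of Ras (Rasgrp1), an enzyme of prostaglandin synthesis (Ptgs2) and a regulator of glutamate receptor trafficking (Arc). Bdnf acts on the receptor TrkB, encoded by Ntrk2, and is known for its part in synaptic plasticity.

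Library totals were 13561511 to 31052149 counts in AZD IP, 16673120 to 31561226 in tumor IP and 23097718 to 34178417 in control IP. Inputs had 14735054 to 19742504 counts with AZD, 17853365 to 23448015 with tumor and 15300374 to 17839717 in control. The library descriptions carry 3 set names: control and tumor input share a set, control and tumor IP share another, and all AZD libraries form the third. Tumor and control were therefore compared within a set, AZD8055 and set cannot be told apart, and in control and tumor mice IP and input differ in set.

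The makeup of the IP differed between conditions. The summed level of 12 genes of excitatory neurons (among them Camk2a, Slc17a7, Neurod2, Neurod6, Tbr1, Nrgn, Itpka, Ddn, Icam5, Hpca and Chn1) was 7050 to 8467 CPM (counts relative to the TMM-scaled library size) in AZD IP, 2819 to 3869 CPM in tumor IP and 6117 to 7198 CPM in control IP. The 12 markers of glioma and oligodendrocyte precursors summed to 669 to 928 CPM in AZD IP, 5765 to 6240 CPM in tumor IP and 522 to 670 CPM in control IP. Astrocyte markers summed to 1905 to 2481 CPM in AZD IP, 4276 to 5881 CPM in tumor IP and 7718 to 8335 CPM in control IP, and microglia markers to 39.3 to 64.0, 211 to 288 and 285 to 312 CPM in the same order of groups. No marker of these lists was at 0 in any group. In input the glioma-lineage markers summed to 3360 to 4850 CPM with AZD, 7122 to 8306 CPM with tumor and 670 to 759 CPM in control. Within same-numbered pairs, the log2 of IP over input for Camk2a averaged 1.37 ± 0.21 in AZD, 0.88 ± 0.59 in tumor and 0.71 ± 0.31 in control (SD, n = 3 pairs each). For Aqp4, an astrocyte water channel, it was -2.26 ± 0.16 in AZD, -0.08 ± 0.09 in tumor and -0.03 ± 0.01 in control, so that Aqp4 RNA was depleted from the AZD IP and about as abundant in the tumor and control IP as in their inputs. In the edgeR fits the 12 excitatory genes had a median log2 of IP over input of 1.35 in AZD, 0.31 in tumor and 0.22 in control. Camk2a was the highest of them in tumor and control. AZD IP replicate 1 had 985 CPM of Camk2a, against 1958 and 2018 CPM in the other AZD IP libraries. Slc17a7 was highest in that library, at 1525 CPM against 1267 and 1133 CPM. The geometric mean of the 12 excitatory genes was 361 CPM there, against 412 and 393 CPM. In such bulk samples fewer neurons and less RNA per neuron cannot be told apart. Member levels are therefore given in CPM and as a percent of the geometric mean count of the 12 excitatory genes in the same library, called percent of the neuron reference. Neither scale corrects for gene length, so values are compared between groups and not between genes.

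Promoter windows were read for sequence that these genes share. RefSeq windows of 300 bases (250 before to 50 after the start site, GRCm38.p6) were found for 7 members, 13 windows in all. The cAMP response element, the site to which CREB binds, was searched as the palindrome TGACGTCA and as its core TGACG, which reads CGTCA on the other strand, each on both strands, and the palindrome holds the core on each strand. The palindrome was in 2 of the 13 windows, those of Scg2 and Pcsk1, against 588 of 32851 windows of all genes (1.79%). The core was in 5 of the 13 windows, those of Scg2, Pcsk1, Ptgs2, Npas4 and 1 of 7 windows of Bdnf, against 20.81% of all windows. The motif TATAAA was in the Inhba window and in 13.62% of all windows. A match describes the letters only. The 5 windows with the core are shown from 5′ to 3′ on the strand of the gene, with the element or its core in capitals.
Scg2 chr1:79439977-79440276 (minus strand): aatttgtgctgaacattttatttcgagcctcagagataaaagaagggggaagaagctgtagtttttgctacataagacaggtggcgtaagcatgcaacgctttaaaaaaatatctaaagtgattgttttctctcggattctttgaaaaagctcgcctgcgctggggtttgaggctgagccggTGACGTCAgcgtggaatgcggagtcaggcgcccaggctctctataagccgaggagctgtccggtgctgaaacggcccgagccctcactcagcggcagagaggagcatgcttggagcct
Pcsk1 chr13:75089607-75089906 (plus strand): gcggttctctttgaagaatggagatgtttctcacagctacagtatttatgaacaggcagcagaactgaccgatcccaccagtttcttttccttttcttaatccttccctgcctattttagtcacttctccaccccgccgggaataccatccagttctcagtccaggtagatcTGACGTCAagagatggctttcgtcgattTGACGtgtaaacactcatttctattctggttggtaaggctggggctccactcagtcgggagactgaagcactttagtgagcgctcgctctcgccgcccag
Bdnf chr2:109692186-109692485 (plus strand): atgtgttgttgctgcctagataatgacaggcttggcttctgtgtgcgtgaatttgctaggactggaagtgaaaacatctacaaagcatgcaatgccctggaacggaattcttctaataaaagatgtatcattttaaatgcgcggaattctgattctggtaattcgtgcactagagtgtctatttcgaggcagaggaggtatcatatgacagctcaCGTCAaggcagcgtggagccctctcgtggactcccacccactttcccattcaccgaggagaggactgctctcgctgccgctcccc
Ptgs2 chr1:150099781-150100080 (plus strand): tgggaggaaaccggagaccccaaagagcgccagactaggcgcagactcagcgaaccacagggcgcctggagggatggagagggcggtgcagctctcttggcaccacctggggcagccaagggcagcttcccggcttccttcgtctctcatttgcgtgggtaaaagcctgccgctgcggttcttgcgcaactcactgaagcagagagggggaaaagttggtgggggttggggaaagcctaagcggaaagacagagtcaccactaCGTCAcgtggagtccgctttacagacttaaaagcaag
Npas4 chr19:4989922-4990221 (minus strand): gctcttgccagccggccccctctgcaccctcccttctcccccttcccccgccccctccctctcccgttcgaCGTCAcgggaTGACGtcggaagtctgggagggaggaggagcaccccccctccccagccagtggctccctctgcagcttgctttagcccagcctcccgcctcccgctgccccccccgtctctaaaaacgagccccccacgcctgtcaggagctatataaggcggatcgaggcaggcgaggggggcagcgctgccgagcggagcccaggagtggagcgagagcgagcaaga

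Counted from the start site, the core began 68 and 65 bases before it in Scg2, 78, 75 and 50 bases before it in Pcsk1, 35 bases before it in the Bdnf window, 179 and 169 bases before it in Npas4, and 13 bases after it in Ptgs2.

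Per library size, tumor IP had more Ptgs2 and less Scg2, Pcsk1 and Rasgrp1 than control IP, and the other 5 members did not pass the test. In edgeR's quasi-likelihood test with Benjamini-Hochberg adjustment over all genes at 0.05, 4 of 9 members passed, 1 higher and 3 lower. Of all 15734 genes tested, 47% passed, 26.1% higher and 20.9% lower, so the members' share was near that of all genes. Without tumor replicate 1, 7 members passed, as Bdnf (0.66), Vgf (-0.43), Arc and Npas4 then passed and Pcsk1 (-0.64) did not. Leaving out each library in turn called 5930 to 6959 of all genes. The same directions were called in input for these 4 genes, and there Bdnf was called higher too, which made 5 of 9 members against 48.1% of all genes (2 higher, against 24.5%, and 3 lower, against 23.6%). Without control replicate 1 or without control replicate 3 the input count of members was 3. In input, leaving out each library in turn called 5679 to 7461 of all genes.

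Among the secreted growth factors, Bdnf (chr2:109674700-109727043, like the other gene positions from RefSeq on GRCm38.p6) is the ligand of TrkB. Its level was 69.7, 42.1 and 45.1 CPM in AZD IP, 45.6, 64.6 and 69.2 CPM in tumor IP, and 52.8, 38.9 and 37.5 CPM in control IP. The 3 IP groups overlapped on this scale. Overlap of libraries is described for each member and was not counted over all genes. Input levels were 22.3, 16.5 and 17.6 CPM with AZD, 26.5, 45.5 and 41.8 CPM with tumor and 27.7, 25 and 26.5 CPM in control, so that all AZD inputs lay below all tumor and control inputs. By group mean the order was tumor IP (59.8 ± 12.5), AZD IP (52.3 ± 15.1), control IP (43.1 ± 8.43), tumor input (37.9 ± 10.1), control input (26.4 ± 1.32) and AZD input (18.8 ± 3.09; CPM, SD, n = 3 each). Neighbours in that order overlapped, except control input and AZD input. Tumor over control was 0.50 ± 0.21 on the log2 scale in IP (SE, adjusted p = 0.0765) and 0.51 ± 0.19 in input (adjusted p = 0.0469). The input call was kept in 4 of 13 alternative settings, with adjusted p of 0.00203 to 0.169, and the IP value passed in 3 of 13 (0.0255 to 0.217).

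Against the neuron reference the tumor libraries of Bdnf lay apart from the others, on a scale where 73.3% of all genes were higher in tumor than control IP. Bdnf stood at 19.3%, 10.2% and 11.5% of the reference in AZD IP, against 34.2%, 36.6% and 37.3% for tumor IP and 15.2%, 13.6% and 12.4% for control IP. The 3 tumor libraries lay close together and above all others, and the AZD and control libraries overlapped. Means were 13.7% ± 4.94 in AZD IP, 36.0% ± 1.64 in tumor IP and 13.7% ± 1.40 in control IP (SD, n = 3 each). The tumor values were the highest in input too, with 17.1%, 9.69% and 9.49% for AZD, 29.4%, 30.2% and 26.1% for tumor and 9.94%, 9.91% and 10.3% for control.

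**Figure D1:**
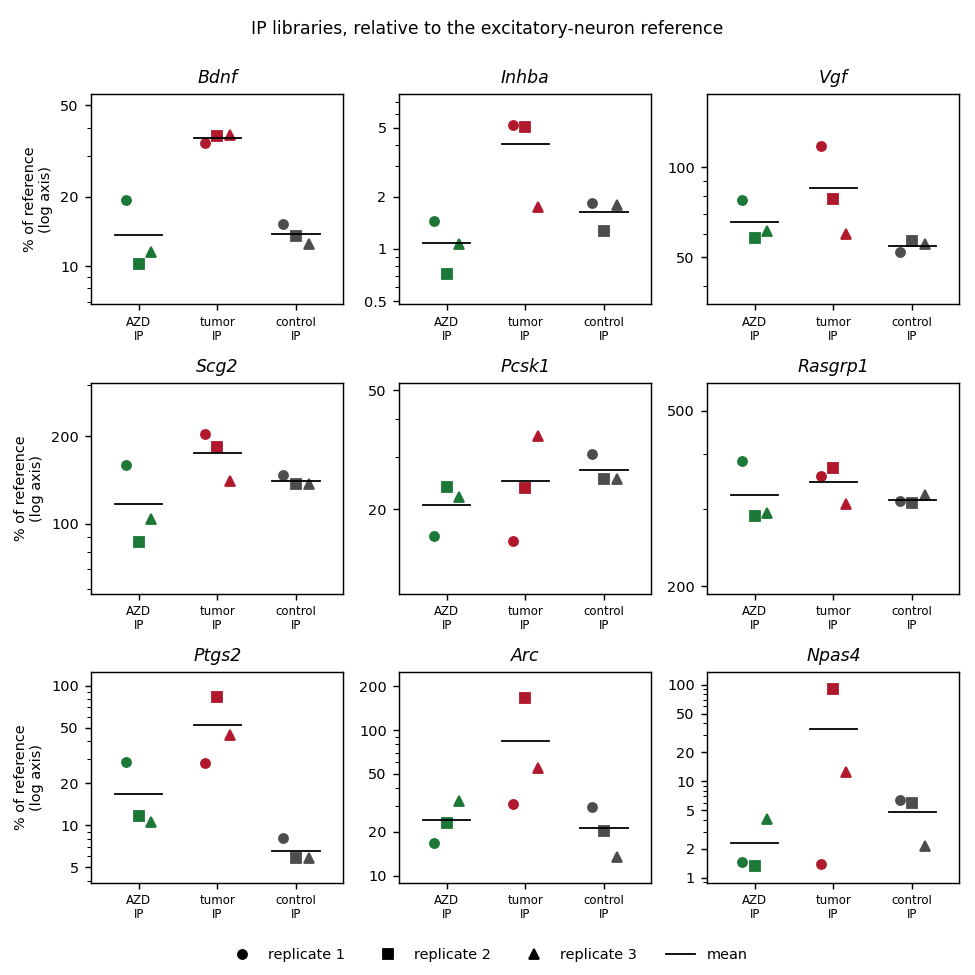
Level of each member in IP as a percent of the neuron reference (y axis, log scale) in AZD, tumor and control IP; points are the 3 libraries of a group and bars the group means. Bdnf sits at 34.2% to 37.3% in the tumor libraries, above the AZD range of 10.2% to 19.3% and the control range of 12.4% to 15.2%, whereas the Pcsk1 and Rasgrp1 groups overlap.

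A test with library sizes set to that reference puts every gene on the same scale, and on it most genes shift together. Of 15734 genes, 73.5% passed between tumor and control IP (73.3% higher, 0.165% lower), with a median log2 fold of 0.92 over all genes. Of the members 6 passed, all higher, which is near the share of all genes, and their median was 1.27. Bdnf was 1.39 ± 0.21 on this scale (adjusted p = 6.59e-05), a fold of 2.62, and was called in 13 of 13 alternative settings (1.10 to 1.73). Its log2 fold was at percentile 75.0 of all genes, and at percentile 75.9 per library size. Between AZD and tumor IP 87.6% of genes passed (0.184% higher, 87.4% lower) with a median of -1.32, and 6 of 9 members passed, all lower, with a median of -1.40. Bdnf was -1.40 ± 0.21 there (adjusted p = 3.11e-05), close to the median of all genes. Between AZD and control IP Bdnf was -0.01 ± 0.21 (adjusted p = 0.969), against a median of -0.32 over all genes. Glioma-lineage markers move with these shifts, with the values given above, and their part in the Bdnf difference was not tested.

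Inhba (chr13:16004256-16031609) encodes the subunit of activin A, a ligand of the TGF-beta family. It was measured at few reads, 40 to 198 counts per library. Its level was 5.24, 2.95 and 4.19 CPM in AZD IP, 6.96, 8.89 and 3.25 CPM in tumor IP, and 6.39, 3.61 and 5.40 CPM in control IP. All 3 groups overlapped, and tumor over control was 0.32 ± 0.35 (adjusted p = 0.483). Against the neuron reference it stood at 1.45%, 0.716% and 1.07% in AZD IP, 5.22%, 5.04% and 1.75% in tumor IP, and 1.84%, 1.26% and 1.79% in control IP. Tumor replicates 1 and 2 were above all control libraries and replicate 3 was within their range. The test on that scale gave 1.27 ± 0.38 for tumor over control (adjusted p = 0.00767) and -1.90 ± 0.39 for AZD over tumor (adjusted p = 0.000422), the first beside a median of 0.92 and the second beside -1.32 over all genes.

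Vgf (chr5:137025301-137033351) encodes a neurosecretory peptide precursor. Its level was 279, 239 and 239 CPM in AZD IP, 157, 138 and 111 CPM in tumor IP, and 180, 162 and 167 CPM in control IP. The groups did not overlap, with AZD highest and tumor lowest. Tumor over control was -0.30 ± 0.13 (adjusted p = 0.0696) and did not pass. AZD over tumor was 0.88 ± 0.13 (adjusted p = 0.000181) and AZD over control 0.57 ± 0.13 (adjusted p = 0.00601), and each was called in 13 of 13 alternative settings. In input the AZD values of 154, 85.2 and 130 CPM overlapped the tumor values of 140, 133 and 100 CPM, and control had 184, 153 and 143 CPM.

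Scg2 (chr1:79434366-79440026) encodes secretogranin II, a granule protein cut into peptides such as secretoneurin. Its level was 576, 357 and 409 CPM in AZD IP, 270, 323 and 261 CPM in tumor IP, and 508, 393 and 414 CPM in control IP. All tumor libraries were below all AZD and control libraries. The log2 fold of tumor over control was -0.60 ± 0.17 (adjusted p = 0.0158) and AZD over tumor 0.62 ± 0.17 (adjusted p = 0.00961). The tumor inputs, at 168, 230 and 185 CPM, were also below the control inputs at 306, 320 and 271 CPM (-0.64 ± 0.15, adjusted p = 0.00603).

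Pcsk1 (chr13:75089420-75134861) encodes a convertase that cuts prohormones in granules. Its level was 58.7, 98 and 86.4 CPM in AZD IP, 20.9, 41.5 and 65.2 CPM in tumor IP, and 106, 72.5 and 76.3 CPM in control IP. Tumor was below control in every library and overlapped AZD, with the lowest value in tumor replicate 1 in input too (14.1 CPM, against 39.3 and 40.2 CPM in the other tumor inputs). The tumor to control fold was -0.96 ± 0.33 on the log2 scale (adjusted p = 0.0354) and AZD over tumor 0.90 ± 0.34 (adjusted p = 0.0387), and each call was kept in 8 of 13 alternative settings, with adjusted p of up to 0.124 and 0.127 in the others.

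Rasgrp1 (chr2:117279983-117342877) encodes a calcium- and diacylglycerol-responsive exchange factor that activates Ras. Its level was 1391, 1189 and 1153 CPM in AZD IP, 474, 653 and 570 CPM in tumor IP, and 1083, 882 and 974 CPM in control IP. No libraries overlapped between the 3 groups. Tumor over control was -0.77 ± 0.14 (adjusted p = 0.00119) and AZD over tumor 1.11 ± 0.14 (adjusted p = 6.35e-05), a fold of 2.16, and both were called in 13 of 13 alternative settings. AZD over control was 0.34 ± 0.14 (adjusted p = 0.0747).

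Against the neuron reference the groups of Rasgrp1, Pcsk1 and Scg2 overlapped. Rasgrp1 stood at 386%, 288% and 294% of it in AZD IP, 356%, 370% and 308% in tumor IP, and 312%, 308% and 323% in control IP. Pcsk1 stood at 16.3%, 23.8% and 22.0% in AZD IP, 15.7%, 23.5% and 35.2% in tumor IP, and 30.7%, 25.3% and 25.3% in control IP. Scg2 stood at 160%, 86.7% and 104% in AZD IP, 202%, 183% and 141% in tumor IP, and 147%, 137% and 137% in control IP. On that scale tumor over control was 0.13 ± 0.13 for Rasgrp1 (adjusted p = 0.358), -0.12 ± 0.24 for Pcsk1 (adjusted p = 0.666) and 0.32 ± 0.19 for Scg2 (adjusted p = 0.151), none of which passed, while the reference genes themselves spread from -0.34 to 0.41. Vgf passed at 0.64 ± 0.20 (adjusted p = 0.0118), below the median of 0.92 over all genes, and lost that call in 3 of 13 alternative settings, among them without tumor replicate 1 (0.33, adjusted p = 0.0614). For AZD over tumor on the same scale Scg2 was -0.59 ± 0.20 (adjusted p = 0.0119, called in 11 of 13 alternative settings), and Vgf (-0.38), Pcsk1 (-0.27) and Rasgrp1 (-0.09) did not pass.

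Ptgs2 (chr1:150100031-150108234) encodes the inducible cyclooxygenase. Its level was 102, 48.0 and 41.2 CPM in AZD IP, 37.4, 147 and 81.8 CPM in tumor IP, and 27.9, 16.6 and 17.5 CPM in control IP. Every tumor and AZD library was above every control library, and tumor and AZD overlapped. Tumor over control was 2.12 ± 0.47 (adjusted p = 0.00401), a fold of 4.36, and AZD over tumor was -0.52 ± 0.45 (adjusted p = 0.341). AZD over control was 1.60 ± 0.47 (adjusted p = 0.0228), and 1.10 without AZD replicate 1, the highest of its group (adjusted p = 0.0892). In input, AZD had 35.4, 17.4 and 23.3 CPM, tumor 30.9, 120 and 64.0 CPM and control 21.4, 16.2 and 19.0 CPM. The tumor inputs were all above the control inputs, and the AZD inputs overlapped both. Input tumor over control was 1.91 ± 0.42 (adjusted p = 0.00394) and AZD over tumor -1.46 ± 0.41 (adjusted p = 0.0334).

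Against the neuron reference Ptgs2 stood at 28.2%, 11.7% and 10.5% in AZD IP, 28.1%, 83.6% and 44.1% in tumor IP, and 8.04%, 5.81% and 5.81% in control IP. The control libraries again lay below all others. Tumor over control was 2.98 ± 0.41 (adjusted p = 3.06e-05), AZD over tumor -1.64 ± 0.39 (adjusted p = 0.00139) and AZD over control 1.34 ± 0.39 (adjusted p = 0.0198), the last of them 0.75 without AZD replicate 1 (adjusted p = 0.107). Ptgs2 was the 1 member of 9 called between AZD and control IP on this scale, where 29.7% of all genes passed (2.14% higher, 27.5% lower). Between those groups per library size Ptgs2 and Vgf were called, both higher, against 33.3% of all genes (16% higher, 17.4% lower), and the 9 members ranged from -0.73 to 1.60.

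Arc and Npas4 differed most between replicates. Arc (chr15:74669081-74672570), a synaptic protein that drives removal of AMPA receptors, had 60.8, 95.2 and 129 CPM in AZD IP, 41.8, 293 and 101 CPM in tumor IP, and 104, 58.2 and 40.8 CPM in control IP. Npas4 (chr19:4984353-5003439), a neuron-specific transcription factor, had 5.32, 5.54 and 15.9 CPM in AZD IP, 1.85, 158 and 23.1 CPM in tumor IP, and 22.0, 17.1 and 6.52 CPM in control IP. All groups overlapped for both genes, and tumor replicate 2 was far above the rest for both. The tumor inputs followed, with 45.7, 353 and 132 CPM for Arc and 2.32, 135 and 31.4 CPM for Npas4.

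Tumor over control in IP was 1.13 ± 0.58 for Arc (adjusted p = 0.133) and 2.03 ± 1.04 for Npas4 (adjusted p = 0.132). Without tumor replicate 2 these values were 0.12 and -0.22. Npas4 was called lower in AZD than in tumor IP at -2.76 ± 1.08 (adjusted p = 0.0477), a call kept in 5 of 13 alternative settings (-3.51 to -0.52). Arc was -0.64 ± 0.58 in that comparison (adjusted p = 0.364). Against the neuron reference Arc and Npas4 were called higher in tumor than control IP (1.99 ± 0.48, adjusted p = 0.00198, and 2.84 ± 0.93, adjusted p = 0.0136), and without tumor replicate 2 Npas4 was 0.55 with an adjusted p of 0.462.

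**Figure D2:**
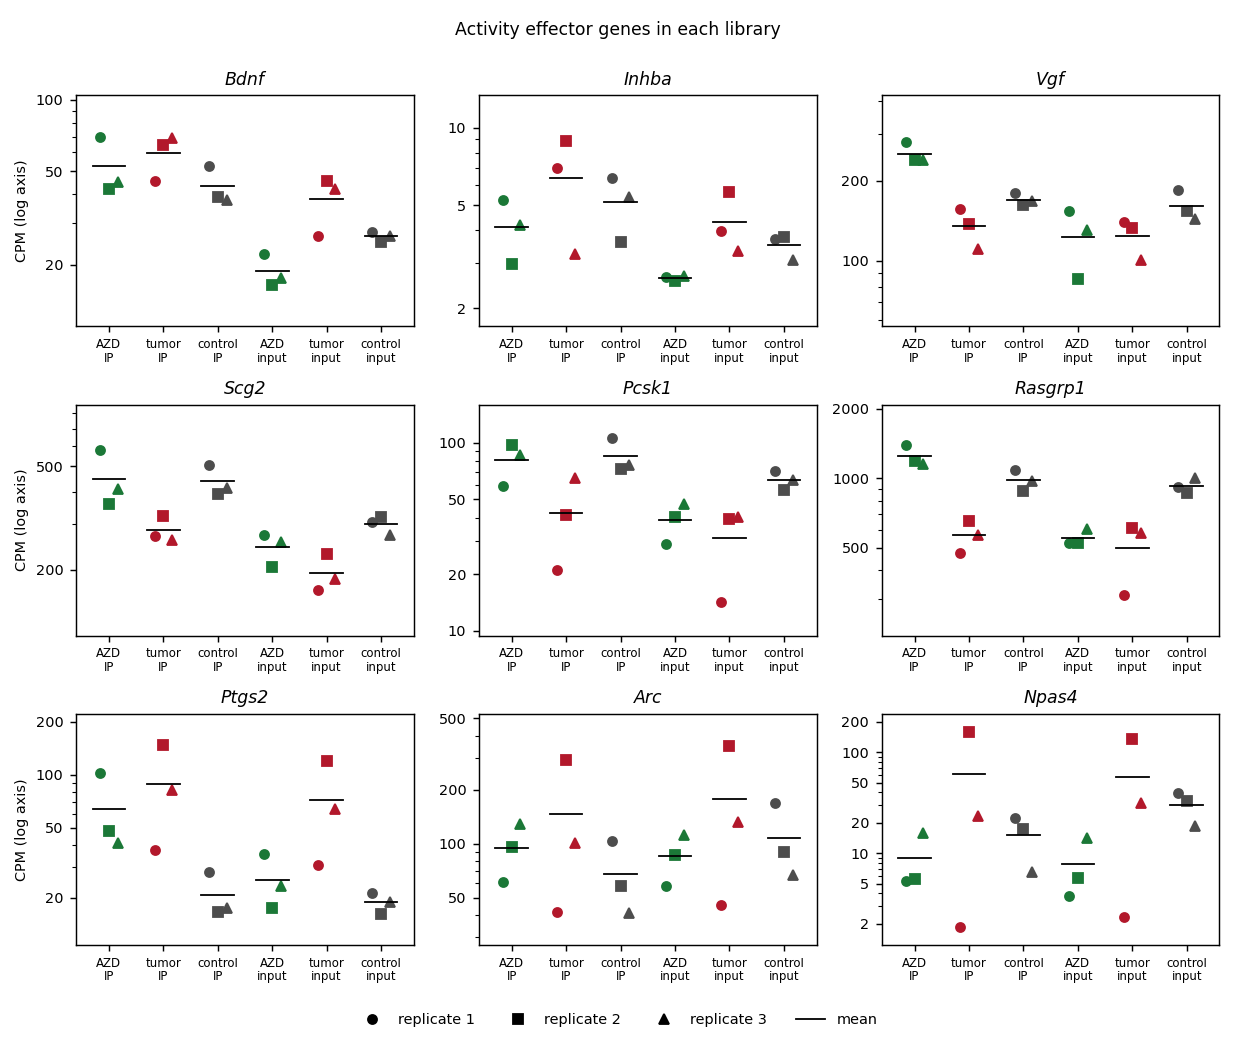
Level of each member in CPM (y axis, log scale) in AZD, tumor and control libraries, IP and input; points are the 3 libraries of a group and bars the group means. Ptgs2 is higher in every tumor IP library (37.4 to 147 CPM) than in every control IP library (16.6 to 27.9 CPM), and the tumor libraries of Npas4 span 1.85 to 158 CPM in IP.

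The spread between replicates was shared by the fractions. Over the 9 numbered pairs of IP and input libraries, the deviations from the group means on the log2 scale correlated at 0.996 for Arc, 0.989 for Npas4, 0.933 for Ptgs2, 0.904 for Pcsk1 and 0.841 for Bdnf, and at 0.616 to 0.728 for Vgf, Scg2, Rasgrp1 and Inhba. Pairs may share a mouse, and depth and composition of the library also enter. These values were not computed for other genes, and same-numbered libraries also deviated together over 16016 genes (r of 0.151 to 0.679). Few libraries can carry such an r: the tumor libraries of Npas4 spanned 1.85 to 158 CPM in IP and 2.32 to 135 CPM in input. The within-group SD in IP on the log2 scale was 1.99 for Npas4, 0.955 for Arc, 0.739 for Ptgs2, 0.555 for Inhba, 0.553 for Pcsk1 and 0.333 for Bdnf, against a median of 0.154 over 11395 genes, and 0.170 for Vgf, 0.179 for Rasgrp1 and 0.253 for Scg2. The members with the widest spread in IP were thus the immediate-early genes Npas4 and Arc, and Vgf, Rasgrp1 and Scg2 had the narrowest. In input Npas4 (1.83) and Arc (0.977) were again the widest, and the narrowest were Scg2 (0.198), Inhba (0.241) and Bdnf (0.278).

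AZD over tumor in IP passed for 5 of 9 members, against 58.7% of all genes. The 4 higher members were Vgf, Scg2, Pcsk1 and Rasgrp1 (25.1% of all genes were higher) and the lower member was Npas4 (33.5% lower). The count was 3 without AZD replicate 2, without AZD replicate 3 or without tumor replicate 2, and in each case Pcsk1 and Npas4 no longer passed. Over all genes, leaving out each library in turn called 7936 to 9090. The 12 reference genes moved by 0.73 to 1.63 in that comparison, all higher, so the folds of these 4 members, 0.62 to 1.11, lay within or just below the range of the neuron genes. In input the lower calls were Bdnf at -0.97 ± 0.19 (adjusted p = 0.00755) and Ptgs2, and the other 7 members did not pass, against 17.1% of all genes (7.89% higher, 9.17% lower). Ptgs2 lost its call without AZD replicate 2, AZD replicate 3 or tumor replicate 2 (-1.25, -1.40 and -0.86), and Bdnf kept its call in 13 of 13 alternative settings. Without tumor replicate 1 the count of members was 4, and leaving out each library in turn called 1359 to 2598 of all genes. AZD over control in input was called for Rasgrp1 alone, at -0.74 ± 0.21 (adjusted p = 0.0191), against 36.8% of all genes (20.7% higher, 16% lower), and lost that call without AZD replicate 1 or 2 or control replicate 1 or 3 (-0.73 to -0.68). Every comparison of AZD with tumor or control crosses library sets.

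**Figure D3:**
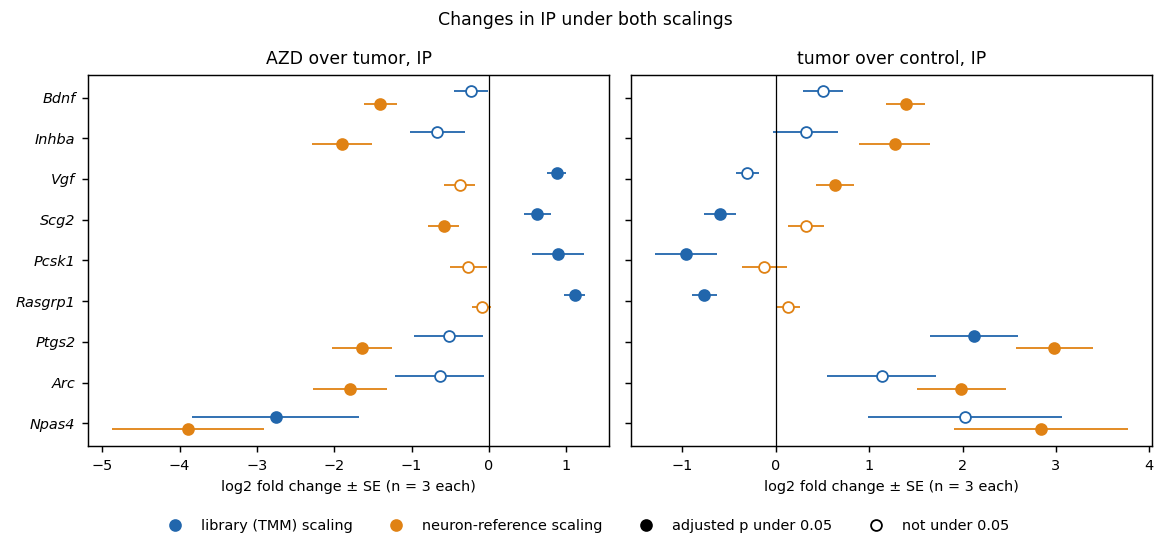
Log2 fold changes in IP of the 9 members (AZD over tumor and tumor over control; x axis, with SE bars), per library size and scaled to the neuron reference. Filled points have an adjusted p under 0.05. Scg2, Pcsk1 and Rasgrp1 lie below 0 in tumor over control per library size (-0.60, -0.96 and -0.77) and near 0 when scaled to the reference (0.32, -0.12 and 0.13), and Bdnf lies at 0.50 per library size and 1.39 scaled to the reference.

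IP was tested against input within each condition. In control and tumor mice the fractions differ in set, and Aqp4 was about as abundant in IP as in input. Their ratios are therefore not read as a measure of how far a member followed the tagged neurons. In AZD mice, where both fractions come from a single set, 6 of 9 members were called higher in IP, against 61.5% of all genes (29% higher, 32.5% lower). Bdnf was highest at 1.48 ± 0.21 (adjusted p = 0.000423), then Ptgs2 at 1.33 ± 0.36, Rasgrp1 at 1.20 ± 0.11, Pcsk1 at 1.10 ± 0.22, Vgf at 1.05 ± 0.20 and Scg2 at 0.89 ± 0.18. Inhba at 0.66 ± 0.26 (adjusted p = 0.0519), Arc at 0.19 ± 0.29 and Npas4 at 0.24 ± 0.55 did not pass. The 12 reference genes ranged from 0.57 to 1.56 with a median of 1.35. All 7 of the members with 0.66 or more thus lay within the range of the reference genes, and the 2 others below it. With the replicate number as a block 7 members were called, Inhba in addition, against 68.9% of all genes.

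In control mice Bdnf (0.69 ± 0.12, adjusted p = 0.000964), Scg2 (0.54 ± 0.11, adjusted p = 0.00205) and Pcsk1 (0.41 ± 0.13, adjusted p = 0.0295) were called higher in IP and Npas4 lower (-0.99 ± 0.34, adjusted p = 0.0354), against 36.5% of all genes (17.7% higher, 18.8% lower). The reference genes ranged from -0.20 to 0.68. With the replicate number as a block 6 members were called, adding Inhba at 0.51 and Arc at -0.69, against 45% of all genes.

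In tumor mice 0 of 9 members were called by edgeR (2 at an unadjusted p under 0.05, and 1 by DESeq2), against 5.09% of all genes (2.11% higher, 2.98% lower). Bdnf was 0.66 ± 0.23 (adjusted p = 0.163) and Scg2 0.55 ± 0.15 (adjusted p = 0.0931), values near those of control. On simulated counts this comparison found 1.4% of log2 changes of 0.5, against 71.1% in control. With the replicate number as a block 6 members were called, against 35.6% of all genes: Bdnf at 0.67, Inhba at 0.53, Scg2 at 0.56, Pcsk1 at 0.44 and Ptgs2 at 0.31 were higher, and Arc at -0.26 was lower.

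**Figure D4:**
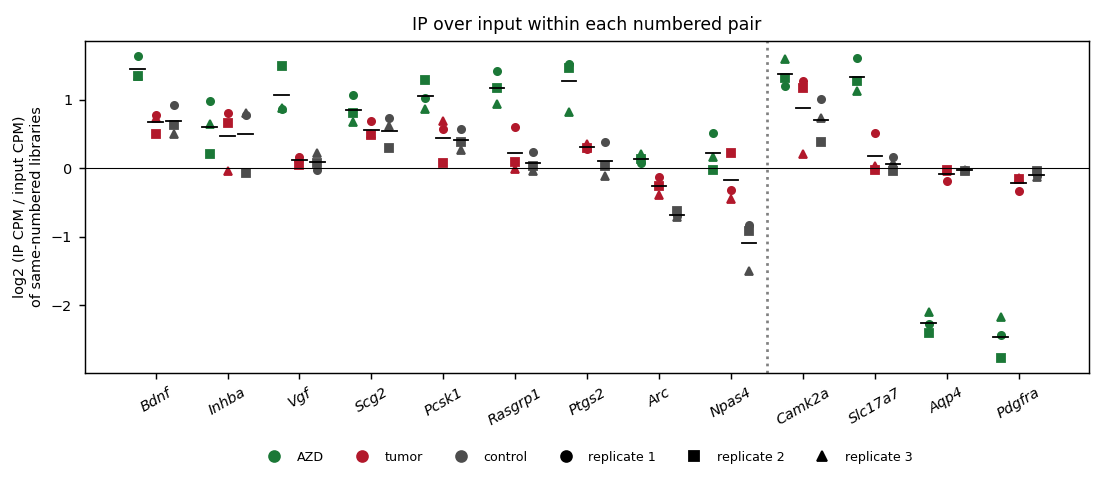
Log2 of IP over input for each member by replicate pair (y axis), in AZD, tumor and control mice; points are the 3 numbered pairs and bars their means, with 4 cell type markers right of the dotted line (Camk2a, Slc17a7, Aqp4 and Pdgfra). Bdnf lies at 1.35 to 1.64 in AZD, 0.50 to 0.78 in tumor and 0.50 to 0.93 in control, and Vgf at 0.86 to 1.49 in AZD against at most 0.22 in tumor and control.

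Whether enrichment in IP differed between conditions was tested as an interaction. For tumor over control 0 of 9 members were called by edgeR (0 at an unadjusted p under 0.05, and 0 by DESeq2), against 0.0687% of all genes (0.05% higher, 0.0187% lower), and with the replicate number as a block Npas4 was called at 0.94 ± 0.19 (adjusted p = 0.0207), against 0.418% of all genes. On simulated counts the test without the block found 4.6% of log2 changes of 0.5. Between AZD and tumor Vgf (0.92 ± 0.26, adjusted p = 0.0126) and Rasgrp1 (1.00 ± 0.27, adjusted p = 0.00962) were called higher, against 33.1% of all genes (12.3% higher, 20.8% lower), and Bdnf was 0.80 ± 0.31 (adjusted p = 0.0590). With the block 6 members were called, against 50.1% of all genes, Bdnf at 0.79 ± 0.14 among them. The 12 reference genes ranged from 0.33 to 1.71 in this contrast.

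Related genes were listed by pathway to set the members in context. The lists were chosen with earlier results of these data known, so their counts are descriptive and no independent test. Their counts per library size stand beside 26.1% of all genes higher and 20.9% lower in tumor than control IP, and 25.1% higher and 33.5% lower in AZD than tumor IP. On the neuron scale, where 73.3% of all genes were higher in tumor than control IP and 87.4% lower in AZD than tumor IP, the counts of these lists went nearly all one way. The list of inducible transcription factors had 16 genes, among them Tiparp, which encodes an enzyme and not such a factor. Of the 16, 11 were higher and 0 lower in tumor than control IP (median log2 fold 1.42, against 0.02 over all genes). Among the higher genes were Maff at 4.04 ± 0.42, Atf3 at 3.07 ± 0.39, Nr4a1 at 2.17 ± 0.32 and Tiparp at 1.62 ± 0.18. Egr3 (-0.35), Egr4 (0.77) and Nr4a3 (0.90) were among those that did not pass. In AZD over tumor IP 14 of the 16 were lower and 0 higher (median -1.55, against -0.09), Atf3 by -4.12 ± 0.44 and Maff by -2.48 ± 0.38, and Egr3 (0.41) and Nr4a2 (0.20) did not pass. Of 24 other activity effectors, 10 were higher and 5 lower in tumor than control IP, with Gem, a small GTPase, at 1.60 ± 0.23 and Syt4, a synaptotagmin, at -0.56 ± 0.11. Between AZD and tumor IP 6 were higher and 8 lower, with the chromatin remodelling gene Baz1a at -2.26 ± 0.26 and the sorting receptor gene Sorcs3 at 0.73 ± 0.13. Scaled to the neuron reference, 15 of the 16 genes of the factor list and 21 of the 24 effectors were higher in tumor than control IP and 0 lower (medians 2.33 and 1.36, against 0.92 over all genes). On that scale 16 of 16 genes of the factor list and 22 of 24 effectors were lower in AZD than tumor IP and 0 higher (medians -2.78 and -1.71, against -1.32). The glioma-lineage markers moved with the genes of the factor list, high in tumor IP (5765 to 6240 CPM) and low in AZD IP (669 to 928 CPM) and control IP (522 to 670 CPM), and their part in these counts was not tested.

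Per library size the dense-core granule genes were mostly lower in tumor IP, as Scg2 and Pcsk1 were. Of 13 tested, 0 were higher and 12 lower in tumor than control IP (median -0.58), with the granule membrane protein genes Ptprn at -0.98 ± 0.11 and Ptprn2 at -0.92 ± 0.12, the exocytosis factor gene Baiap3 at -2.23 ± 0.29, and Cpe, the carboxypeptidase that trims prohormones, at -0.58 ± 0.10. Chga at -0.13 ± 0.40 did not pass. In AZD over tumor 8 were higher and 1 lower (median 0.93), with Chgb at 1.43 ± 0.13 and Ptprn at 1.35 ± 0.11. Scaled to the neuron reference the granule median of tumor over control was 0.31, against 0.92 over all genes, with 5 higher and 1 lower, and in AZD over tumor 0 were higher and 6 lower (median -0.31, against -1.32), so that the direction of these counts depends on the scale. The 12 reference genes moved the same way as the granule genes, from -1.22 to -0.55 for tumor over control per library size.

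Genes around the ligands and enzymes were called in both directions per library size. Of 12 genes of Bdnf signalling, 3 were higher and 4 lower in tumor than control IP, with the adaptor gene Gab1 at 2.07 ± 0.10, Plat, the tissue plasminogen activator, at 1.32 ± 0.22, and Sort1, which sorts proBDNF, at -1.03 ± 0.19. The receptor gene Ntrk2 was -0.30 ± 0.12 (adjusted p = 0.0522). Between AZD and tumor IP 2 were higher and 4 lower, with Gab1 at -2.63 ± 0.10 and Sort1 at 1.06 ± 0.19. Of 12 tested genes of activin signalling, 2 were higher and 3 lower in tumor than control IP, led by the activin subunit gene Inhbb at 2.00 ± 0.27 and the co-receptor gene Tgfbr3 at -0.65 ± 0.10, and in AZD over tumor 4 were higher and 2 lower (Inhbb -1.66 ± 0.27). On the neuron scale the calls ran one way in each comparison. In tumor over control 8 of the 12 Bdnf signalling genes and 9 of the 12 activin genes were higher there and 0 lower, against 73.3% of all genes higher. Their medians were 0.79 and 0.74, against 0.92 over all genes. In AZD over tumor 9 and 11 were lower and 0 higher, against 87.4% of all genes lower (medians -1.55 and -1.16, against -1.32).

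Per library size, of 12 prostaglandin genes, 2 were higher and 2 lower in tumor than control IP: the prostaglandin E synthase genes Ptges at 0.90 ± 0.28 and Ptges3 at 0.39 ± 0.11 were higher, and Ptgds at -1.23 ± 0.32 and Ptges2 at -0.31 ± 0.11 lower. Between AZD and tumor IP 2 were higher and 5 lower, with Ptges at -2.45 ± 0.32. Of 13 tested genes of Ras, its activators and diacylglycerol enzymes, 1 was higher and 7 lower in tumor than control IP. Among them were the exchange factor gene Rasgrf1 at -1.05 ± 0.15, the diacylglycerol kinase gene Dgkg at -0.93 ± 0.12 and Nras, itself a Ras gene, at 0.82 ± 0.14. In AZD over tumor 6 were higher and 4 lower, with Rasgrf1 at 1.15 ± 0.15 and Rasgrp3, a paralogue of Rasgrp1, at -1.76 ± 0.25. Of 16 genes that carry the calcium signal to transcription, 0 were higher and 9 lower in tumor than control IP, with Mef2c at -0.90 ± 0.17 and the calcineurin gene Ppp3ca at -0.70 ± 0.14, and Creb1 at 0.18 ± 0.08 did not pass. In AZD over tumor 8 were higher and 3 lower, with Mef2c at 1.19 ± 0.17. Scaled to the neuron reference, 9 of the 12 prostaglandin genes, 4 of the 13 Ras and diacylglycerol genes and 11 of the 16 calcium-to-transcription genes were higher in tumor than control IP and 0 lower (medians 1.24, 0.26 and 0.57, against 0.92 over all genes). In AZD over tumor on that scale 10, 9 and 14 of them were lower and 0 higher (medians -1.54, -1.39 and -0.99, against -1.32).

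Genes with the most similar pattern were ranked by Pearson's r of log2 CPM over the 18 libraries among 11395 genes. Libraries share depth and composition, so these values describe the ranking. Rasgrp1 was followed most closely by Nrg3 (0.986), Nmt2 and Erc2 (0.980 each), Pcsk1 by Nefl (0.973) and Kcnh7 (0.972), and Scg2 by Rspo2 (0.963). Vgf was nearest to Cox5b (0.931), Bdnf to Zeb2 (0.939) and Dhx9 (0.913), and Ptgs2 to Lphn3 (0.948) and Sorcs1 (0.915). Arc was nearest to Dusp1 (0.930) and Npas4 (0.873), Npas4 in turn to Arc and Btg2 (0.856), and Inhba to Nrxn2 at 0.775, the lowest leading value of the 9. Over the 9 IP libraries Arc and Npas4 correlated at 0.856 and, within groups, at 0.951, and Bdnf and Ptgs2 at 0.864 on each measure. The highest within-group value of a member pair was 0.972, for Rasgrp1 and Ptgs2, which correlated at -0.147 over the 9 libraries. Bdnf and Rasgrp1 had 0.839 within groups and -0.147 over the 9 libraries.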

How the data were processed

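RNA-seq of 18 mouse cortex libraries gave a table of raw counts per gene symbol, deposited by the authors with no normalization. Per the submitters' processing notes STAR, DESeq2 and mm10 were used, and per the labels' protocols libraries came from a directional NEBNext Ultra kit. Neither the read counter, versions nor strand setting is given in the sources used here, so reads of a gene and of an overlapping antisense gene may not be told apart.

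Members and gene lists were chosen with earlier results of these data known. Counts were scaled by TMM, filtered with filterByExpr and tested in edgeR 4.0.16 (R 4.3.3; quasi-likelihood F test, Benjamini-Hochberg over all genes, adjusted p under 0.05). Conditions were compared within each fraction (9 libraries), IP with input within each condition (6 libraries), and IP minus input over all 18. For the neuron-scaled fit the library sizes were set to the geometric mean of the 12 excitatory genes (1 of them is not reported here), and 0.5 was added to counts for the percent of the reference. The 14 comparisons were checked on simulated counts. Changes of 2 on the log2 scale were found in 94.1% to 100% of cases. Changes of 0.5 were found in 0% (AZD over tumor in IP, neuron scale) to 71.1% (control IP against input). Positions and promoters are from RefSeq, in which 21571 of 23420 symbols were found. Per list and comparison, at most 4 called genes (smallest adjusted p) and 3 others could be named.

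Same-numbered IP and input libraries deviated together from their group means over 16016 genes (r of 0.206 to 0.448 for AZD pairs, 0.408 to 0.679 for tumor pairs, 0.151 to 0.185 for control pairs, each best with its own number), so the number was taken to pair fractions and was run as a block. Between conditions r was -0.119 to 0.261 and the number was not taken as a pairing. Each tumor library was nevertheless best with the control library of its own number in both fractions, at r of 0.030 to 0.159. The source of that match was not tested. The alternatives were DESeq2 1.42.0, plain totals, upper quartile, a mean of at least 5 CPM, no filter, all 18 libraries in 1 fit, the replicate block, other neuron references and leaving out each library. Figures were drawn with matplotlib 3.10.9.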

Additional observations from a re-analysis of the deposited data

Results flagged for a closer look

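The change of Vgf between AZD and tumor differed between the fractions, as tested by the contrast of IP minus input: it was 0.9161 higher in IP on the log2 scale (edgeR adjusted p = 0.0126). Vgf was higher in IP than input by 0.86 to 1.49 in AZD pairs and by 0.05 to 0.17 in tumor pairs. For Rasgrp1 the same contrast was 1.0001 (edgeR adjusted p = 0.00962), with 0.94 to 1.41 in AZD pairs and -0.02 to 0.60 in tumor pairs. The 12 neuron reference genes ranged from 0.33 to 1.71 in this contrast, the values of both genes lay inside that range, and AZD8055 and library set cannot be told apart.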

How the results depend on the processing

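Of the single-gene values recomputed under the alternatives, 681 kept direction and side of the threshold, 59 lost a call, 24 gained a call and 12 changed sign; the cause of these changes was not tested. None of the 12 that changed sign had passed the test. On the neuron scale these were tumor over control for Pcsk1 with Camk2a alone as reference (0.20), Scg2 with Slc17a7 alone (-0.034) and Rasgrp1 with Slc17a7 alone (-0.20) or the pan-neuronal genes (-0.0063), and AZD over tumor for Rasgrp1 with Camk2a alone (0.12) or Slc17a7 alone (0.040). Leaving out single libraries changed the sign of the other 6: tumor over control in IP spanned -0.0098 to 0.65 for Inhba and -0.22 to 2.59 for Npas4, AZD over tumor in IP spanned -1.02 to 0.045 for Ptgs2 and -1.07 to 0.38 for Arc, and on the neuron scale Pcsk1 spanned -0.46 to 0.12 for tumor over control and -0.50 to 0.074 for AZD over tumor. The highest AZD over tumor values of Ptgs2 and Arc and the lowest tumor over control values of Inhba and Npas4 came without tumor replicate 2.

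With the replicate number as a block, 6 members were called between IP and input in tumor, against 35.6% of all genes. The block called 6 for IP minus input in AZD over tumor, against 50.1%, and 1 (Npas4) in tumor over control, against 0.418%. It called 1 for AZD over tumor in input, where 17.1% of all genes passed in the main fit. For comparisons between conditions the libraries share only a number. Between IP and input in tumor DESeq2 called 1 and all 18 libraries in 1 fit called 1. For control the fit of all 18 libraries called 2. The main fits called 5.09% of all genes in tumor and 36.5% in control. Plain totals called 1 for IP minus input in AZD over tumor, where the main fit called 33.1% of all genes. Slc17a7 alone called 2 for AZD over control in IP on the neuron scale, where the main fit called 29.7% of all genes. Leaving out each library gave 3 to 7 members for tumor over control in IP, 3 to 6 in input, 3 to 6 for AZD over tumor in IP, 1 to 4 in input, 1 to 2 for AZD over control in IP, 0 to 1 in input, 0 to 1 for AZD over control on the neuron scale and 0 to 1 for IP against input in tumor. Over all genes these runs called 5930 to 6959, 5679 to 7461, 7936 to 9090 and 1359 to 2598 for the first 4 of these. For AZD over control they called 3429 to 4735 in IP, 3737 to 4965 in input and 2713 to 5043 on the neuron scale.

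Over all genes, IP against input in tumor called 776 genes, 1665 by DESeq2, 451 at a mean of at least 5 CPM, 2225 with all 18 libraries, 5433 with the block, 1755 without tumor replicate 1, 0 without tumor replicate 2 and 4 without tumor replicate 3. For IP minus input in tumor over control the count was 11, and 3 to 67 under the alternatives. On the neuron scale tumor over control called 11562 genes and 7291 with Slc17a7 alone, and AZD over control 4670 and 1372 with Camk2a alone. For IP minus input in AZD over tumor it was 5296, and 8025 with the block. The counts of Inhba, 40 to 198 per library, limit its precision.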
